A study of Mus musculus with 16 samples.

Results

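The response of brown fat to sunitinib was read from 4 RNA sequencing libraries, 2 from mice given sunitinib (Sutent) and 2 from mice given vehicle. They are 4 of the 16 libraries of a series that also holds inguinal white fat, epididymal white fat and liver. All mice were C57BL/6 and 24 weeks old. Dose, length of treatment and sex are not stated in the labels. The series states 8 mice, 4 for each treatment, but no label ties a library to a mouse or to a pool of mice, so every p-value measures only the spread between these libraries. Values are regularized log2 levels (rlog), which pull the values of a gene towards its own mean, most of all at low counts. A difference is the mean of the sunitinib libraries minus the mean of the vehicle libraries on that log2 scale, with its SE from 2 libraries a group. Of 19664 genes in the brown fat table, 13044 had a mean of at least 3 and were analysed. Near the edge of that minimum, Cdh11 with a mean of 3.002 (difference -0.07) was inside and Capn9 with a mean of 2.9999 (difference -0.02) outside.

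Brown adipose tissue burns fatty acids and glucose to make heat, through uncoupling protein 1 (Ucp1) in the inner mitochondrial membrane, and depends on a dense capillary bed for fuel and oxygen. It also makes fatty acids from glucose at a high rate. Sunitinib is an oral inhibitor of receptor tyrosine kinases, among them the receptors for vascular endothelial growth factor (VEGF), which endothelial cells need for sprouting and in some beds for survival, the receptors for platelet-derived growth factor on pericytes and fibroblasts, and the receptor for colony-stimulating factor 1 on macrophages. The comparison asks what such a block does to the RNA of a tissue that is both vascular and metabolically active. In bulk tissue, fewer cells of a type and less RNA per cell cannot be told apart.

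The libraries were brown fat by most of their markers. Ucp1 lay between 16.46 and 16.93 and Cidea, a lipid droplet protein of brown adipocytes, between 14.87 and 15.24 in the 4 libraries, against 4.66 to 5.30 for Ucp1 in the inguinal libraries, whose table was normalized separately. Cox7a1, Cox8b, Dio2 and Zic1, other markers of brown adipocytes, were also higher than in the inguinal libraries. Prdm16 was not, with 4.50 to 4.82 in brown fat and 5.27 to 5.81 in inguinal fat. The epithelial gene Krt18 was at most 0.56. The liver gene Alb was 9.32 to 9.81, against 20.13 to 20.33 in the liver libraries. The vehicle libraries differed from each other far more than the sunitinib libraries did. Over all genes the SD of the difference within the pair was 0.300 for vehicle and 0.119 for sunitinib, and a gap above 1 was seen for 172 genes in the vehicle pair against 5 in the sunitinib pair. Skeletal muscle RNA was part of this. Acta1, the actin of skeletal muscle, was 9.01 in vehicle 1, 12.93 in vehicle 2, 11.19 in sunitinib 1 and 10.93 in sunitinib 2. In 32 of 32 fast-fibre genes and 9 of 9 slow-fibre genes both sunitinib libraries lay above vehicle 1 and below vehicle 2, and the median gap between the vehicle libraries was 3.24 for the fast-fibre list. Muscle RNA is thus higher in sunitinib than in vehicle 1 and lower than in vehicle 2, and the sign of its difference depends on which vehicle library is read: -0.44 against both and 1.06 against vehicle 1 alone, for the median fast-fibre gene. Vehicle 1 stood apart in another way. Rn45s, the ribosomal RNA precursor, was 15.40 in vehicle 1 and 13.81, 13.72 and 13.71 in vehicle 2, sunitinib 1 and sunitinib 2, and the mitochondrial transfer RNA mt-Ty was 9.78, 9.12, 8.68 and 8.74 in the same order. For these reasons the list medians and many of the genes below are given also against vehicle 1 alone, where vehicle 2 does not enter.

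**Figure D1:**
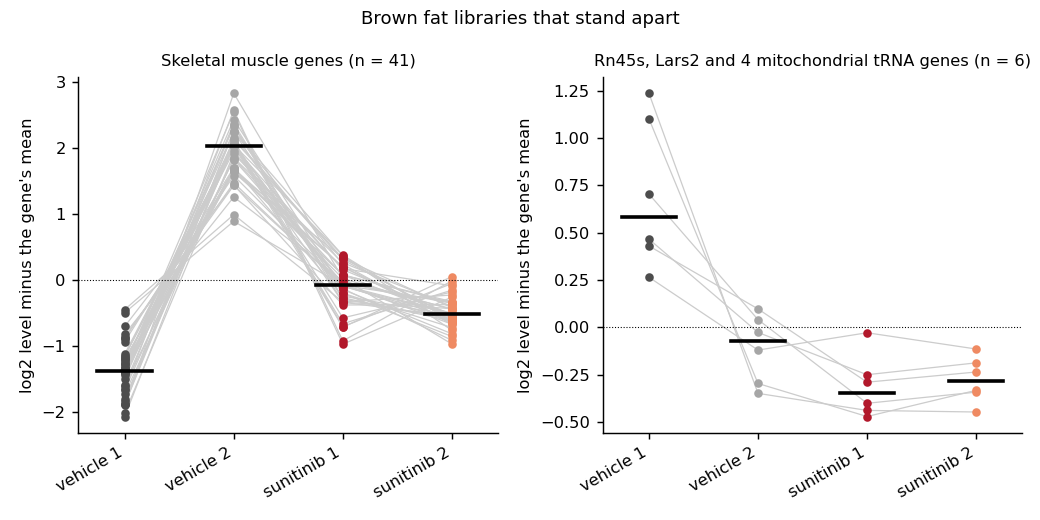
Level of each gene minus its own mean over the 4 libraries (log2), with 1 line and 4 points per gene and a black bar at the median of each library. The left panel holds 41 skeletal muscle genes, highest in vehicle 2 and lowest in vehicle 1, and the right panel holds Rn45s, Lars2 and 4 mitochondrial transfer RNA genes, highest in vehicle 1.

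No single gene passed the test. With limma and Benjamini-Hochberg adjustment over the 13044 genes, 0 genes were called higher and 0 lower, and the smallest adjusted p was 0.228. At an unadjusted p below 0.05 there were 1191 higher genes (9.13%) and 910 lower genes (6.98%), where 652 in all would be expected from the threshold. Differences were small: the median over all genes was -0.00, and no difference lay outside -1.22 to 0.999. Both sunitinib libraries lay above both vehicle libraries for 3420 genes (26.2%) and below both for 3131 (24.0%). Together with a difference of 0.5 or more this left 43 higher genes (0.330%) and 52 lower genes (0.399%).

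Against vehicle 1 alone, 76 genes were higher in both sunitinib libraries with a mean difference of 0.5 or more (0.583%) and 63 were lower (0.483%). Of the 76, 38 belong to the skeletal muscle lists and 58 were not above vehicle 2, so most of that count is not shared with the other vehicle library. Of the 63 lower genes, 10 were not below vehicle 2 and 0 were muscle genes. Under both readings together, 8 genes were higher (0.0613%) and 29 lower (0.222%). The lower ones include genes in which vehicle 1 stood apart, such as Rn45s above and Lars2, chosen after their values were seen. Lars2 was 12.49 in vehicle 1, 11.09 in vehicle 2, 10.92 in sunitinib 1 and 11.06 in sunitinib 2. For such genes most of the difference is against vehicle 1. The 43 genes that were higher against both vehicle libraries lie above vehicle 1 by that rule, and 8 of them did so by 0.5 or more. Of the 52 lower genes, 29 kept 0.5 or more against vehicle 1, and 7 differed from vehicle 1 by less than 0.2. Those near vehicle 1 include Fhl1, a muscle protein, with 10.87 in vehicle 1, 12.38 in vehicle 2, 10.81 in sunitinib 1 and 10.70 in sunitinib 2, a gene chosen after its values were seen.

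The VEGF receptors that the drug inhibits, and most endothelial genes, had higher values in sunitinib-treated brown fat, though none passed the adjusted test. Kdr, the main VEGF receptor of endothelial cells, was 11.50 in vehicle 1, 11.11 in vehicle 2, 11.80 in sunitinib 1 and 11.79 in sunitinib 2, a difference of 0.49 ± 0.13 (SE) and of 0.30 against vehicle 1 alone. Flt1, the VEGF receptor that also acts as a decoy, was 11.06, 10.61, 11.33 and 11.34 in the same order of libraries (0.49 ± 0.15, and 0.27 against vehicle 1). Flt4, the receptor for VEGF-C of lymphatic and sprouting endothelium, was 7.48, 7.20, 7.76 and 7.70 (0.40 ± 0.11, and 0.25 against vehicle 1). In all 3 receptors the sunitinib libraries lay above both vehicle libraries, and vehicle 2 was the lowest. Pdgfrb, the pericyte receptor for platelet-derived growth factor B, was 8.63, 8.40, 8.90 and 8.86 (0.37 ± 0.09, and 0.25 against vehicle 1), also without overlap.

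The other target kinases did not share this. Pdgfra, the fibroblast and preadipocyte receptor, overlapped between groups with 7.44, 7.59, 7.41 and 7.54, and so did Ret, with 4.69, 4.73, 4.71 and 4.67. Kit, the stem cell factor receptor, was 5.48, 5.58, 5.47 and 5.39 (-0.10 ± 0.07). Csf1r, the macrophage receptor, was lower without overlap, at 7.25, 7.56, 6.94 and 7.09 (-0.39 ± 0.12, and -0.23 against vehicle 1). Flt3 was below the level minimum, at 0.57 to 0.60. None of the 8 kinases tested passed limma's adjusted test, where the adjusted p of the VEGF receptors ran from 0.233 to 0.248. Among 18 ligands and co-receptors, 8 were higher without overlap and 4 lower, beside 26.2% and 24.0% over all genes, and the median difference was 0.05, and 0.03 against vehicle 1 alone. Pdgfb, the ligand that endothelial tip cells use to recruit pericytes, had the smallest p of this list, with 9.03 and 8.84 in vehicle against 9.53 and 9.43 in sunitinib (0.55 ± 0.09, and 0.45 against vehicle 1).

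Endothelial genes as a group had values of the same sign. The gene lists, this one included, were chosen with earlier results of these data known, so their counts are not an independent test. Of 36 endothelial genes tested, 31 were higher in both sunitinib libraries than in both vehicle libraries and 0 were lower, beside 26.2% and 24.0% over all genes. All 36 differences were positive, from 0.08 for Calcrl to 0.59 for Tie1, with a median of 0.32 beside -0.00 over all genes. Against vehicle 1 alone 31 of the 36 were still above it in both sunitinib libraries, beside 39.4% of all genes, and the median was 0.22. Vehicle 2 was below vehicle 1 in 33 of the 36, so the difference is largest against the library with the most muscle RNA. The part of the muscle RNA in that gap was not tested. The median was 0.22 without vehicle 2, 0.43 without vehicle 1 and 0.32 after a correction for transcript length and GC content.

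Tie1, an orphan receptor of the angiopoietin system, was 9.33 in vehicle 1, 9.10 in vehicle 2, 9.87 in sunitinib 1 and 9.74 in sunitinib 2 (0.59 ± 0.10, and 0.48 against vehicle 1). Sox18 was 8.36, 8.12, 8.84 and 8.72 in that order (0.54 ± 0.10), and Sox7 was 7.74, 7.48, 8.11 and 8.15 (0.52 ± 0.10). Both encode transcription factors of endothelial specification, and they stayed 0.42 and 0.39 above vehicle 1 alone. Aplnr, the apelin receptor of sprouting endothelium, was also apart between groups, at 6.16, 6.10, 6.56 and 6.46 (0.38 ± 0.07). Gpihbp1, which carries lipoprotein lipase across the endothelium, had a difference of 0.37 and the adhesion molecule Pecam1 one of 0.40, and they were 0.34 and 0.23 above vehicle 1 alone. Erg, Sox17, Ptprb, Cldn5 and Calcrl came close to vehicle 1, with differences from -0.01 to 0.04 against it. These last 7 genes were chosen after their values were seen.

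Genes that VEGF signalling raises in tip cells were not lower either. Of 18, 14 were higher without overlap and 1 lower, beside 26.2% and 24.0% over all genes. The median was 0.25, and 0.22 against vehicle 1 alone. Dll4, the Notch ligand of tip cells, was 8.22 and 8.12 in vehicle 1 and vehicle 2 against 8.77 and 8.63 in sunitinib 1 and sunitinib 2 (0.53 ± 0.08, and 0.48 against vehicle 1). Apln, the apelin ligand, was 6.61, 6.58, 6.96 and 6.96 (0.37 ± 0.06). Trp53i11 was 8.56, 8.36, 8.87 and 9.08 (0.52 ± 0.11). All 3 kept the groups apart, which their choice by smallest unadjusted p in the list favours. Nid2, a nidogen of the vascular basement membrane, is also one of the 10 higher genes named by smallest unadjusted p, with 6.98, 7.10, 7.48 and 7.55 (0.47 ± 0.08, and 0.53 against vehicle 1).

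The basement membrane and mural cell lists gave smaller values. Of 12 basement membrane genes 8 were higher without overlap and 1 lower, beside 26.2% and 24.0% over all genes (median 0.19, and 0.13 against vehicle 1). Col4a1, a chain of type IV collagen, was 12.24, 11.98, 12.43 and 12.54 (0.37 ± 0.11), and Hspg2, the proteoglycan perlecan, was 11.52, 11.36, 11.70 and 11.80 (0.31 ± 0.08). Of 17 pericyte and vascular smooth muscle genes 7 were higher and 1 lower (median 0.13, and 0.22 against vehicle 1), which in share is closer to the 26.2% of all genes. Kcnj8, a potassium channel subunit of pericytes, was 8.55, 8.35, 8.91 and 8.78 (0.39 ± 0.09). The median of the extracellular matrix list changed sign with the vehicle library. Of 29 genes 7 were higher and 3 lower (median -0.03). Against vehicle 1 alone 14 were above and 3 below (median 0.08), beside 39.4% and 38.2% of all genes. Of 5 lymphatic endothelial genes 1, Flt4, was higher without overlap and 0 lower (median 0.03, and 0.12 against vehicle 1).

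**Figure D2:**
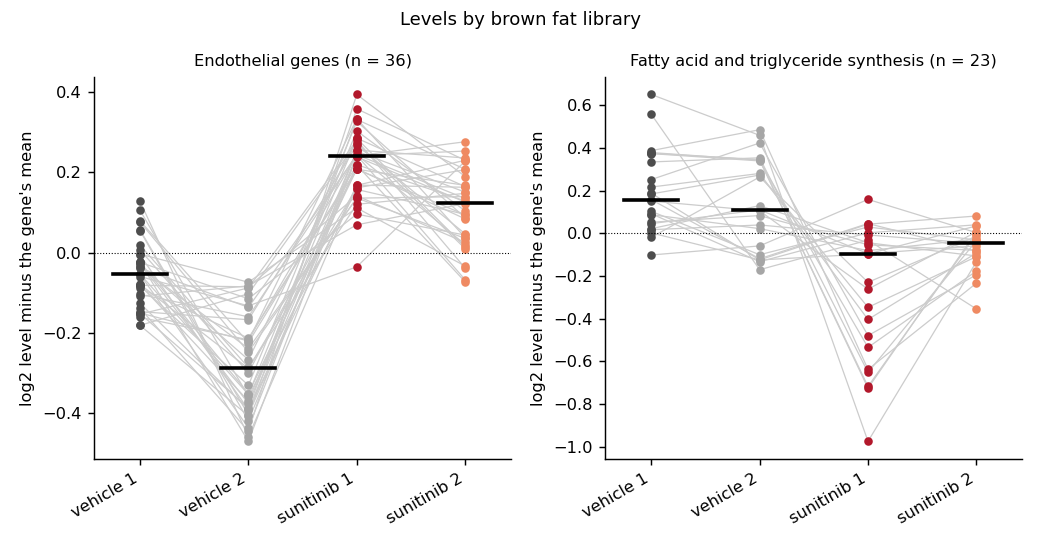
Level of each gene minus its mean over the 4 brown fat libraries (log2), 1 line per gene, black bars at the library medians. The 36 endothelial genes sit higher in both sunitinib libraries than in vehicle 2, with vehicle 1 between, and in the 23 genes of fatty acid and triglyceride synthesis the lowest points are in sunitinib 1.

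Hypoxia-inducible genes, which respond when oxygen delivery falls short, were read beside the vascular genes. Of 23, 13 were higher without overlap and 4 lower, beside 26.2% and 24.0% over all genes. The median was 0.11, and 0.10 against vehicle 1 alone. Egln3, the oxygen-sensing prolyl hydroxylase that hypoxia induces, was 9.10, 8.96, 9.50 and 9.58 (0.51 ± 0.08, and 0.44 against vehicle 1). Bnip3, a mitophagy receptor, was 12.28, 12.26, 12.68 and 12.57 (0.36 ± 0.07). Kdm3a, a histone demethylase, was 9.13, 8.95, 9.40 and 9.50 (0.41 ± 0.08), and the glucose transporter Slc2a1 was 7.04, 6.95, 7.28 and 7.27 (0.28 ± 0.07). These 4 were higher in both sunitinib libraries, which their choice by smallest unadjusted p in the list favours. None passed limma's adjusted test (adjusted p = 0.228 for each). Pdk1 had the most negative difference of the list and was lower without overlap. It was 10.52, 10.40, 9.91 and 10.22 (-0.39 ± 0.12, and -0.45 against vehicle 1).

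On the metabolic side, the enzymes that turn citrate and acetate into fatty acids had lower values. Of 23 genes of fatty acid and triglyceride synthesis, 15 were lower in both sunitinib libraries and 2 higher, beside 24.0% lower over all genes, and the median difference was -0.24. Against vehicle 1 alone 20 of 23 were below it in both sunitinib libraries, beside 38.2% of all genes, with a median of -0.22. Vehicle 2 was below vehicle 1 in 12 of the 23 genes. The spread here lies between the sunitinib libraries: sunitinib 1 was below sunitinib 2 in 16 of 23.

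Acly, which splits citrate into acetyl-CoA, was 13.69 in vehicle 1, 13.79 in vehicle 2, 12.66 in sunitinib 1 and 13.07 in sunitinib 2 (-0.87 ± 0.14, and -0.82 against vehicle 1). Me1, the malic enzyme that supplies NADPH, was 12.47, 12.44, 11.56 and 11.92 (-0.71 ± 0.13). Acss2, which activates acetate, was 11.17, 11.26, 10.64 and 10.88 (-0.46 ± 0.10), and Pnpla3, a lipid droplet protein under lipogenic control, was 11.27, 11.44, 10.54 and 10.83 (-0.67 ± 0.12). In these 4 both sunitinib libraries were below both vehicle libraries, with sunitinib 1 the lowest. Their choice by smallest unadjusted p in the list favours such a separation. The core enzymes of the pathway had larger gaps within the sunitinib pair. Fasn, the fatty acid synthase, was 16.79, 16.75, 15.70 and 16.41 (-0.72 ± 0.24), and Acaca, acetyl-CoA carboxylase, was 14.20, 14.22, 13.22 and 13.83 (-0.69 ± 0.20). The vehicle libraries were close to each other in both genes.

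The stearoyl-CoA desaturases gave -0.72 ± 0.25 for Scd1, -1.11 ± 0.27 for Scd2 and -1.14 ± 0.36 for Scd3. These are close paralogs whose reads can be shared, so the split between them is uncertain. Fasn, Acaca and the desaturases were chosen after their values were seen. Among the regulators of the pathway, the differences were -0.26 for Srebf1 and -0.06 for Mlxipl, the genes of the transcription factors SREBP1 and ChREBP. The list also holds genes on the other side of zero, up to 0.16 for the desaturase Fads1. These 3 too were chosen after their values were seen.

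Cholesterol synthesis had lower values in part. Of 23 genes 11 were lower without overlap and 4 higher, beside 24.0% and 26.2% over all genes. The median was -0.12, and -0.15 against vehicle 1 alone. Hmgcs1, which makes HMG-CoA, was 11.57, 11.37, 10.87 and 11.06 (-0.51 ± 0.10). Sc5d, a desaturase of the last steps, was 8.80, 8.72, 8.40 and 8.38 (-0.37 ± 0.06), and Idi1, the isopentenyl diphosphate isomerase, was 8.55, 8.45, 8.15 and 8.16 (-0.34 ± 0.07). Stard4, a sterol carrier, was on the other side, with 6.41, 6.33, 6.66 and 6.76 (0.34 ± 0.07).

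Thermogenic genes lay on both sides. Of 31, 6 were higher without overlap and 10 lower, beside 26.2% and 24.0% over all genes, with a median of -0.06. Against vehicle 1 alone 7 were above and 19 below, beside 39.4% and 38.2% of all genes, with a median of -0.08. Ucp1 was 16.68 in vehicle 1, 16.46 in vehicle 2, 16.93 in sunitinib 1 and 16.80 in sunitinib 2 (0.30 ± 0.13, and 0.19 against vehicle 1), and limma gave an adjusted p of 0.324. Cidea was 14.92, 14.87, 15.22 and 15.24 (0.34 ± 0.08, and 0.32 against vehicle 1). Kcnk3, a potassium channel of brown adipocytes, was 12.34, 12.12, 12.65 and 12.67 (0.44 ± 0.09), and Cox7a1, a cytochrome oxidase subunit found in muscle and brown fat, was 13.32, 13.37, 13.72 and 13.70 (0.36 ± 0.07). In all 4 both sunitinib libraries were above both vehicle libraries. For Kcnk3 and Cox7a1 the choice by smallest unadjusted p in the list favours this.

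Other thermogenic genes lay on the lower side. Ppargc1a, the coactivator PGC-1α that drives mitochondrial biogenesis, was 9.14, 9.09, 8.80 and 8.76 (-0.34 ± 0.06, and -0.36 against vehicle 1). Acot11, an acyl-CoA thioesterase induced by cold, was 11.90, 11.80, 11.26 and 11.42 (-0.51 ± 0.08, and -0.57 against vehicle 1). The groups did not overlap in Ppargc1a, nor in Acot11, which was named partly for that. Dio2, the deiodinase that activates thyroid hormone in brown fat, overlapped, with 10.88, 10.41, 10.98 and 9.91, and was chosen after its values were seen. The thyroid hormone list, which includes Me1, had 6 of 11 genes lower and 1 higher, beside 24.0% and 26.2% over all genes. Its median was -0.20, and -0.22 against vehicle 1. Thrb, the receptor gene, was 8.06, 7.94, 7.65 and 7.81 (-0.27 ± 0.09).

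Nuclear genes of oxidative phosphorylation were mostly higher by small amounts. Of 47, 33 were higher without overlap and 4 lower, beside 26.2% and 24.0% over all genes. The median was 0.19, and 0.25 against vehicle 1 alone. Ndufa8, a subunit of complex I, was 11.83, 11.83, 12.15 and 12.14 (0.31 ± 0.06), and Cox5b, a subunit of cytochrome oxidase, was 13.51, 13.59, 13.93 and 13.94 (0.38 ± 0.07). The same pattern was seen in cytosolic ribosomal proteins, a list added after the values were seen, where 62 of 78 were higher and 0 lower (median 0.23, and 0.31 against vehicle 1). Short transcripts in general lay on this side: the median difference was 0.06 in the fifth of genes with the shortest transcripts (median 1088 bases) and -0.05 in the fifth with the longest (median 6619 bases). The median length was 1046 bases for the oxidative phosphorylation list and 896.5 bases for the ribosomal proteins. After correction for length and GC content the medians were 0.14 and 0.16.

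In the tricarboxylic acid cycle 10 of 26 genes were lower and 4 higher (median -0.09, and -0.13 against vehicle 1). Pdha1, a subunit of pyruvate dehydrogenase, was 14.12, 13.89, 13.40 and 13.74 (-0.44 ± 0.14), while Idh2, the mitochondrial isocitrate dehydrogenase, was 13.17, 13.18, 13.38 and 13.42 (0.23 ± 0.07). Glycolysis had 5 of 20 genes higher and 5 lower, near the 26.2% and 24.0% of all genes, with a median of -0.00 (0.01 against vehicle 1). Fatty acid oxidation gave 4 higher and 5 lower of 30 (median -0.01, and -0.06 against vehicle 1), and adrenergic signalling and lipolysis 3 higher and 4 lower of 22. The shares of these last 2 lists are below those of all genes. The adrenergic median was 0.03 against both vehicle libraries and -0.04 against vehicle 1 alone. Adrb1, a beta-adrenergic receptor gene, was 7.98, 7.75, 7.49 and 7.65 (-0.29 ± 0.11).

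**Figure D3:**
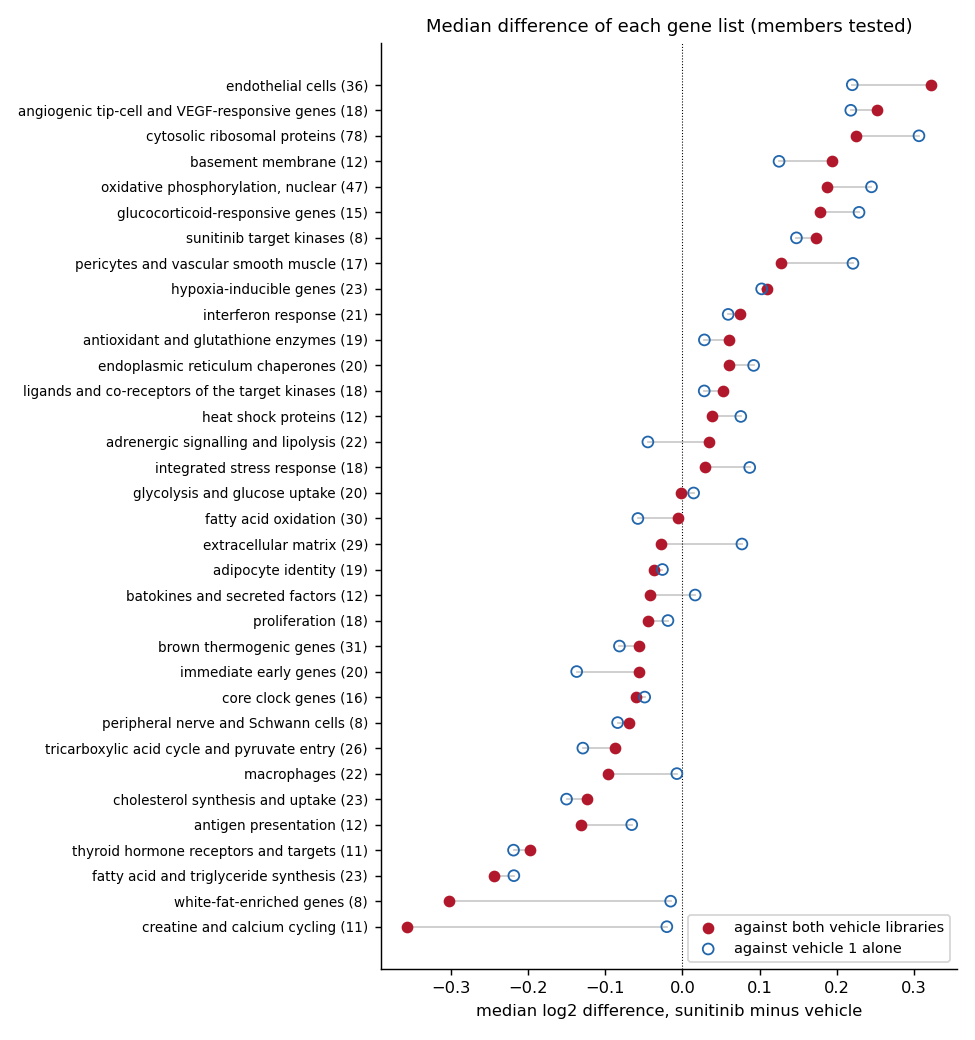
Median log2 difference, sunitinib minus vehicle, of each gene list with at least 8 members tested, muscle lists left out, with the number tested in brackets. Filled points use both vehicle libraries and open points vehicle 1 alone. Endothelial genes are at 0.32 and 0.22, fatty acid and triglyceride synthesis at -0.24 and -0.22, and creatine and calcium cycling and white-fat-enriched genes lie near zero against vehicle 1 alone.

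Among the lists whose median depended on vehicle 2 were creatine and calcium cycling (11 genes, -0.36 against both vehicle libraries and -0.02 against vehicle 1) and white-fat-enriched genes (8 genes, -0.30 and -0.02). The first holds Atp2a1 and Ryr1, the calcium pump and release channel of skeletal muscle, which were 3.68 and 3.21 higher in vehicle 2 than in vehicle 1, and the value of -0.36 is that of Atp2a1. Within these lists a few genes were lower against vehicle 1 as well. Npr3, the clearance receptor for natriuretic peptides, which signal for lipolysis and thermogenesis, was 10.71 in vehicle 1, 11.02 in vehicle 2, 9.93 in sunitinib 1 and 9.67 in sunitinib 2 (-1.06 ± 0.14, and -0.91 against vehicle 1). Lep, the leptin gene, was 8.09, 9.19, 7.53 and 7.33 (-1.21 ± 0.35, and -0.66 against vehicle 1). Vehicle 2 was the highest in both genes, by 1.10 for Lep, and the sunitinib libraries were below both. Ryr2, a calcium release channel, was 8.87, 8.72, 8.32 and 8.46 (-0.40 ± 0.09).

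A further 20 genes were chosen by smallest unadjusted p among those whose groups did not overlap and that differed by 0.5 or more from vehicle 1, so both properties are fixed by the choice. On the higher side were the metallothioneins Mt1 and Mt2, which bind zinc and copper and respond to metals and glucocorticoids. Mt1 was 10.80 in vehicle 1, 10.65 in vehicle 2, 11.36 in sunitinib 1 and 11.35 in sunitinib 2 (0.62 ± 0.07, and 0.55 against vehicle 1). Mt2 was 9.21, 9.0, 9.77 and 9.72 (0.64 ± 0.09, and 0.53 against vehicle 1). The 2 genes are neighbours on chromosome 8, and in both the sunitinib libraries lay close together.

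Because the pair had like differences, the 250 bases before the annotated start of each gene are shown, from RefSeq on GRCm38.p6, plus strand, 5′ to 3′, with matches to the core of the metal response element in capitals. The letters searched were TGCACNC and TGCGCNC on both strands.
Mt1, chr8:94178839-94179088: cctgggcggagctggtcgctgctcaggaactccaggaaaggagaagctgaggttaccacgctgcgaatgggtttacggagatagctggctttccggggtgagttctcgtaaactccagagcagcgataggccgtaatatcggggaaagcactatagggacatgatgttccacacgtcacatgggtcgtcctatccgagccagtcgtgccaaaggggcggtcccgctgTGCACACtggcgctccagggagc
Mt2, chr8:94172368-94172617: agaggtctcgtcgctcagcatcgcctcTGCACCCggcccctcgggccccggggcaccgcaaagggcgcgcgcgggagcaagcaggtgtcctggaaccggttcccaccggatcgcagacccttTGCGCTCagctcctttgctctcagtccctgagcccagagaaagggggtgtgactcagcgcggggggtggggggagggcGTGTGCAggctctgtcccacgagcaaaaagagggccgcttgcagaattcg
The Mt2 window holds 3 matches, which start 223, 128 and 50 bases before the annotated start, the last of them on the minus strand. The Mt1 window holds 1, which starts 23 bases before the annotated start. Bases outside the windows were not searched, so these counts do not rank the genes by their number of sites. Of 32851 windows of this length in the table, 21.4% hold at least 1 match and 1.26% hold at least 3. A match describes the letters and not a bound site. The reference differs from the build mm9 named in the submitters' processing notes, and no coordinate was used to read expression.

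Cfd, the serine protease adipsin that adipocytes secrete, had the largest positive difference, with 12.38 in vehicle 1, 12.68 in vehicle 2, 13.75 in sunitinib 1 and 13.30 in sunitinib 2 (0.999 ± 0.18, and 1.145 against vehicle 1). Ckb, the creatine kinase of the futile creatine cycle, was 9.37, 9.25, 10.07 and 9.84 (0.65 ± 0.10, and 0.59 against vehicle 1). Tnc, the matrix protein tenascin C, was 6.23, 6.33, 6.85 and 6.70 (0.50 ± 0.08). Gmpr, guanosine monophosphate reductase, was 13.19, 12.48, 13.91 and 13.47 (0.86 ± 0.27, and 0.50 against vehicle 1), with a wider gap within the vehicle pair. The other 4 higher genes had differences of 0.66 for Glt1d1, 0.50 for Tm4sf1, 0.53 for Cyp2b10 and, as above, 0.47 for Nid2.

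On the lower side, next to Npr3, Acly, Acot11 and Pnpla3, were Pank3, a pantothenate kinase that starts coenzyme A synthesis, with 10.13, 10.07, 9.26 and 9.50 (-0.72 ± 0.10, and -0.75 against vehicle 1), and Ank, a membrane exporter of pyrophosphate, with 10.23, 10.26, 9.59 and 9.71 (-0.59 ± 0.07, and -0.58 against vehicle 1). Ank had the smallest unadjusted p of the named genes, 0.00025. Slc5a3, the sodium-dependent inositol transporter, was 9.20, 9.14, 8.60 and 8.78 (-0.48 ± 0.08). The others were Arhgap5 (-0.53), Tmem179 (-0.64) and Adcy10 (-0.43).

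When vehicle 2 was left out, these 20 genes, chosen in part for their difference from vehicle 1, had adjusted p of at most 0.048 (limma), which the choice largely fixes. In that fit 369 genes were called higher and 287 lower over the 13044, and the higher ones include 31 of 32 fast-fibre and 8 of 9 slow-fibre muscle genes. Its spread comes from the sunitinib pair alone, and vehicle 1 is assumed to vary as little as that pair, while the vehicle pair had the larger spread given above. The calls therefore compare these libraries rather than the treatments. Endothelial genes called higher there numbered 5 of 36, and genes of fatty acid and triglyceride synthesis called lower 8 of 23, beside 2.83% higher and 2.20% lower over all genes. None of the 8 target kinases was called. Without vehicle 1 in place of vehicle 2, 26 of 36 endothelial genes were called higher and 8 of 23 genes of fatty acid and triglyceride synthesis lower, beside 3.62% higher and 6.29% lower over all genes, and 4 target kinases were called higher and 1 lower. That fit rests on vehicle 2 alone.

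**Figure D4:**
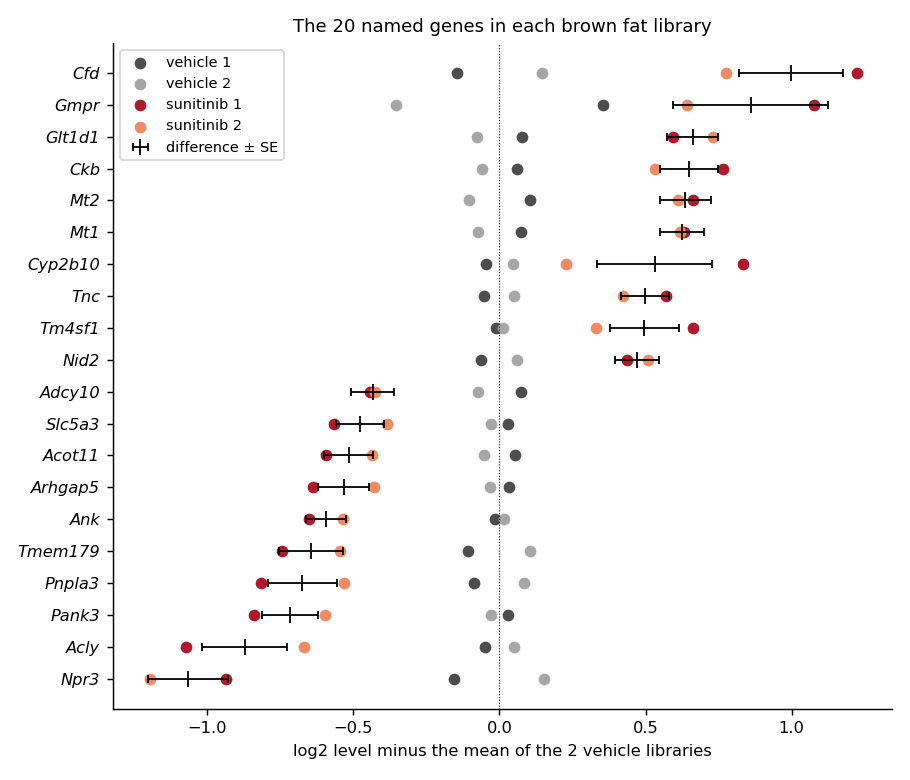
The 20 named genes, each as 4 points for its level in vehicle 1, vehicle 2, sunitinib 1 and sunitinib 2 minus the mean of the vehicle libraries (log2), with the difference ± SE in black. Differences run from -1.06 for Npr3 to 0.999 for Cfd, and the choice of genes put the sunitinib points on 1 side of the vehicle points.

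Of 22 macrophage genes 8 were lower without overlap and 2 higher (median -0.10), beside 24.0% and 26.2% over all genes. Against vehicle 1 alone 8 were below and 5 above, beside 38.2% and 39.4%, with a median of -0.01, and vehicle 2 was above vehicle 1 in all but 3. Mpeg1, the pore-forming protein perforin-2, was 6.81, 6.79, 6.36 and 6.44 (-0.40 ± 0.07, and -0.40 against vehicle 1). Lyz2, lysozyme M, was 9.87, 10.25, 9.46 and 9.64 (-0.51 ± 0.14, and -0.32 against vehicle 1). The pan-macrophage gene Cd68 lay between 6.04 and 6.06 in all 4 libraries.

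Proliferation genes gave 6 of 18 lower and 5 higher (median -0.04, and -0.02 against vehicle 1), beside 24.0% and 26.2% over all genes. Mki67, the proliferation antigen Ki-67, was 5.29, 5.17, 4.87 and 4.85 (-0.37 ± 0.06), while Mcm3, a subunit of the replicative helicase, was 5.79, 5.83, 6.04 and 6.0002 (0.21 ± 0.06). In the list of peripheral nerve and Schwann cells 4 of 8 were lower and 0 higher (median -0.07, and -0.08 against vehicle 1). Pmp22, a myelin protein, was 9.15, 9.14, 9.04 and 9.07 (-0.09 ± 0.06).

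Glucocorticoid-responsive genes, which share Mt1 and Mt2 with the antioxidant list, had 7 of 15 higher and 2 lower (median 0.18, and 0.23 against vehicle 1). The shares without overlap over all genes were 26.2% higher and 24.0% lower. Cdkn1a, the cell cycle inhibitor p21, was 9.85, 9.65, 10.47 and 10.21 (0.59 ± 0.12). Per1, a clock gene that glucocorticoids also induce, was 8.66, 8.75, 9.19 and 8.99 (0.38 ± 0.09), and Per3, its relative, lay on the other side with 8.72, 8.85, 8.37 and 8.40 (-0.40 ± 0.07). Gpx3, the secreted glutathione peroxidase, was 14.29, 14.19, 14.66 and 14.72 (0.45 ± 0.08). Interferon-stimulated genes had 12 of 21 higher and 3 lower, beside those same shares, with a median of 0.07, and 0.06 against vehicle 1. Integrated stress response, chaperone and heat shock lists had medians between 0.03 and 0.06, and between 0.08 and 0.09 against vehicle 1, and of the heat shock genes Hspa8 was 11.002, 11.12, 11.41 and 11.41 (0.35 ± 0.07) while the inducible Hspa1b was 8.91, 9.39, 8.19 and 8.75 (-0.68 ± 0.23). Immediate early genes, which react to handling, had a median of -0.53 for vehicle 2 minus vehicle 1, larger in size than their median difference of -0.06 between treatments, or of -0.14 against vehicle 1.

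Whether brown fat responded differently from white fat was tested as the sunitinib effect in brown fat minus that in a white depot. Because the tables were normalized separately, shrinkage can differ between them. Against epididymal white fat, limma called 379 of 12661 genes more positive in brown fat (2.99%) and 82 more negative (0.648%), and against inguinal white fat 4 of 12725 more positive (0.0314%) and 0 more negative. With 1 brown fat library left out, the epididymal count ran from 80 without sunitinib 1 to 714 without vehicle 1. In the inguinal comparison 1100 and 636 genes had an unadjusted p below 0.05.

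Endothelial genes had effects of opposite sign in brown and white fat. The median effect over 36 genes was 0.32 in brown fat, -0.34 in epididymal and -0.31 in inguinal fat, and it was positive for 36 of 36 genes in brown fat against 3 of 36 in each white depot. The difference itself passed for 6 of 36 against epididymal fat, all more positive in brown fat, beside 2.99% of all genes. Cd93, a receptor of endothelial adhesion and sprouting, was 9.46 and 9.15 in the vehicle and 9.99 and 9.79 in the sunitinib libraries of brown fat, and 10.17 and 10.37 against 9.32 and 9.35 in epididymal fat, a difference of effects of 1.52 ± 0.17 (SE, limma adjusted p = 0.0063). Cd300lg, an endothelial surface receptor, gave 1.22, Car4, a capillary carbonic anhydrase, 1.08, and Gpihbp1 0.91. Nos3, the endothelial nitric oxide synthase, gave 0.62 and Tspan18 0.62. Cd93 passed with any 1 brown fat library left out, while Cd300lg lost its call without sunitinib 1, Gpihbp1 without vehicle 2 or sunitinib 1, Tspan18 without vehicle 2 or sunitinib 2, Nos3 without either sunitinib library, and Car4 without any 1 of vehicle 2, sunitinib 1 and sunitinib 2. Against inguinal fat 1 endothelial gene passed: Aplnr, at 8.53 and 8.62 in vehicle and 7.27 and 7.06 in sunitinib inguinal libraries, had an effect of -1.41 there and 0.38 in brown fat, a difference of 1.79 ± 0.15 (limma adjusted p = 0.0453). That call was lost when any 1 brown fat library was left out, with adjusted p from 0.159 to 0.530, although the difference stayed between 1.73 and 1.84. Tip-cell genes passed against epididymal fat in 7 of 18 cases and against inguinal fat in 0 of 18. Over all genes 2.99% and 0.0314% were called more positive in brown fat in these comparisons.

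**Figure D5:**
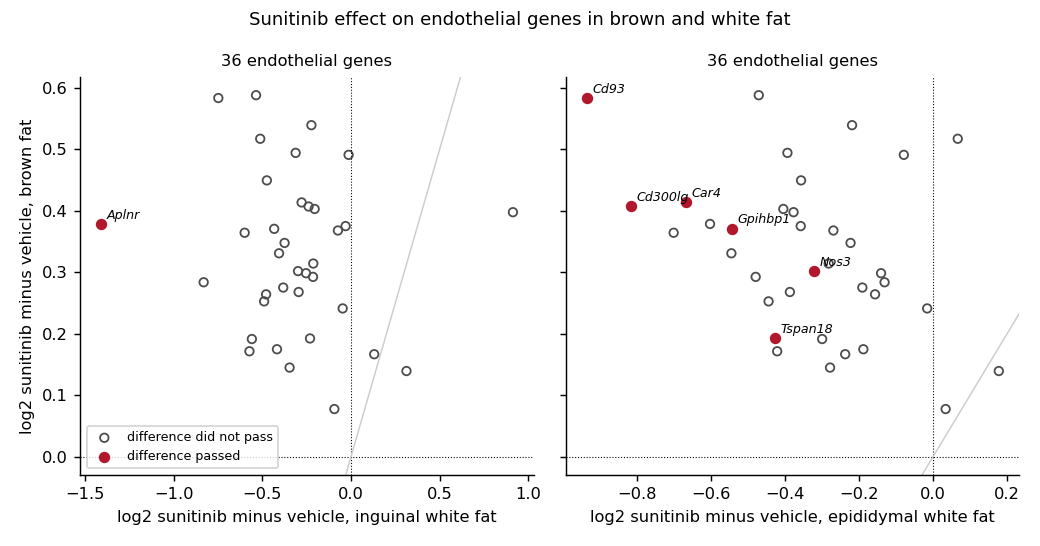
Sunitinib effect (log2 sunitinib minus vehicle) on 36 endothelial genes in brown fat (vertical axis) against inguinal (left) and epididymal (right) white fat (horizontal axes, on different ranges). Filled red points are genes whose difference between depots passed limma's adjusted test, 1 on the left and 6 on the right, and the grey line marks equal effects. All points lie above 0 on the brown fat axis and most lie left of 0 on the white fat axis.

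Of the 5 genes with the smallest adjusted p against epididymal fat, 4 are known from myeloid cells and were close to level in brown fat. Itgax, the integrin CD11c, was between 3.46 and 3.53 in all brown fat libraries, and 10.14 and 10.24 in vehicle against 8.74 and 8.58 in sunitinib epididymal libraries, a difference of effects of 1.498 ± 0.10. Adam8, a myeloid protease, gave 1.67 ± 0.12, Slc37a2, a sugar-phosphate transporter of macrophages, 1.49 ± 0.10, and Wdfy4, a gene of cross-presenting dendritic cells, 1.07 ± 0.08. The brown fat effects of these 4 lay between -0.09 and 0.01. They are low in brown fat, where regularized values shrink a difference most. Myo1e, an unconventional myosin, differed in direction, with 0.27 in brown fat and -0.98 in epididymal fat (difference 1.24 ± 0.09). Of 22 macrophage genes 9 passed against epididymal fat, all more positive in brown fat, beside 2.99% of all genes.

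For fatty acid and triglyceride synthesis the contrast with epididymal fat had the other sign, with median effects of -0.24 in brown and 0.11 in epididymal fat. Of 23 genes 3 passed, all more negative in brown fat, beside 0.648% of all genes. Against inguinal fat 0 of 23 passed, with a median of -0.06 there. For cholesterol synthesis the inguinal median was -0.48 and the epididymal -0.22, beside -0.12 in brown fat. Against epididymal fat 3 of 23 of these genes passed, all more positive in brown fat, beside 2.99% of all genes. Fabp3, the fatty acid binding protein of muscle and brown fat, passed against inguinal fat, with 13.11 and 13.22 in vehicle and 13.42 and 13.29 in sunitinib brown fat, and 7.56 and 7.64 against 5.41 and 4.93 in inguinal fat (difference of effects 2.63 ± 0.22). So did Mss51, a mitochondrial gene of skeletal muscle (2.80 ± 0.24), and Fabp3-ps1, a pseudogene of Fabp3 that may share its reads. Fabp3 and Mss51 did not pass with any 1 brown fat library left out. The inguinal libraries carried muscle RNA that differed by treatment, with a median effect of -2.78 over 32 fast-fibre genes, beside -0.44 in brown fat. Its part in the values of Fabp3 and Mss51 was not tested.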

How the data were processed

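Total RNA of brown fat was sequenced in 2 vehicle and 2 sunitinib libraries. The authors deposited 1 table per tissue of regularized log2 (rlog) levels per gene and library, which is how their file names describe them. Tools named in the submitters' processing notes, without a role, are TopHat2 2.1.1, DESeq2, bedtools and bcl2fastq 2.17.1.14, and the build named is mm9. The gene annotation, counting settings and strandedness have no source here, so overlapping and antisense genes and paralogs cannot be told apart. The values hold no read totals, which leaves depth unknown and allows no counting interval. Shrinkage understates differences of genes with few reads.

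Genes with a mean rlog of at least 3 were fitted in limma 3.58.1 (R 4.3.3) using an intensity trend, 2 residual and 3.28 prior degrees of freedom, two-sided, with Benjamini-Hochberg adjustment over all genes and a threshold of 0.05. Tissue differences were tested as interactions in a joint fit of the 2 tissues. An exact permutation test of 2 against 2 libraries cannot go below 0.333, so none was run. The fits were tested on simulated data.

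The members and the 44 gene lists, besides 2 lists added later, were chosen with earlier results of these data known. The lists hold 859 different genes, of which 48 were not in the table and 89 were below the minimum. Named genes were the largest differences past the adjusted threshold (none was found), then up to 10 a direction by smallest unadjusted p with both sunitinib libraries on 1 side of both vehicle libraries and a difference of 0.5 or more from vehicle 1, the target kinases, Ucp1, Cidea, up to 4 genes a list by p (muscle lists: by the gap between vehicle libraries), and the 5 smallest adjusted p per tissue pair. Predicted and clone names, and 21 date-like symbols, were not named, and a few genes that the rule would name are not reported here. No library repeated another: the 2 most alike differed by up to 1.13. Transcript lengths came from GENCODE M21 by symbol, for 96.2% of the genes.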

Additional observations from a re-analysis of the deposited data

Results flagged for a closer look

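The effect of sunitinib differed between brown and epididymal white fat for 461 genes and between brown and inguinal white fat for 4 genes, by limma's interaction contrast, as the sunitinib effect in brown fat minus that in the white depot. Among endothelial genes the differences from epididymal fat were 1.52 for Cd93, 1.22 for Cd300lg, 1.08 for Car4, 0.91 for Gpihbp1, 0.62 for Tspan18 and 0.62 for Nos3. Only Cd93 of these passed whichever brown fat library was left out. Among the genes with the smallest adjusted p the differences from epididymal fat were 1.24 for Myo1e, 1.67 for Adam8, 1.49 for Slc37a2, 1.498 for Itgax and 1.07 for Wdfy4. All of these but Myo1e are low in brown fat, where regularized values shrink a difference most. Against inguinal fat the differences were 2.63 for Fabp3, 1.79 for Aplnr and 2.80 for Mss51. The calls of Fabp3, Aplnr and Mss51 were lost when any 1 brown fat library was left out. Fabp3 and Mss51 are also muscle genes, and muscle RNA differed by treatment in the inguinal libraries.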

How the results depend on the processing

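The absence of calls in brown fat held with no minimum level, a minimum of 5, quantile normalization, median centring, no intensity trend, a robust prior and a length and GC correction, and not under every alternative. With a replicate block there were 0 calls in each direction (smallest adjusted p 0.449), and with the numbers crossed also 0 (0.181). The pairing rests only on a shared number, and the correlation of the within-pair differences was -0.256 over genes. A fit over the 4 tissues called 1 gene lower, Npr3. The muscle score as a covariate, added after seeing the data, called 788 higher and 805 lower with 1 residual degree of freedom. Leaving out 1 library gave 0 to 472 higher and 0 to 820 lower calls: 472 and 820 without vehicle 1, 369 and 287 without vehicle 2, and 0 and 0 without either sunitinib library. A difference of 1 in place of 0.5 left 0 higher and 5 lower genes against both vehicle libraries and 22 and 11 against vehicle 1 alone. The 4 calls against inguinal fat became 0 with no minimum level, 2 with median centring, 458 in a fit over the 4 tissues and 0 to 1 with a library left out. The 461 calls against epididymal fat became 692 with a robust prior, 83 in a fit over the 4 tissues and 80 to 714 with a library left out. The cause was not tested. Of 2840 values of single genes and list medians under alternatives, 2438 kept direction and call, or for medians lay within the spread between replicates, 264 gained and 34 lost a call, 100 list medians moved by more than that spread, and 4 values of single genes changed sign: Pdgfra after length and GC correction (0.0083) and with a library left out (-0.11 to 0.0416), and Mbp with a library left out (-0.24 to 0.0317). The number of libraries and the unknown depth limit the precision.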

Other observations

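Among the 43 genes that were higher by 0.5 or more, several outside the lists are known from blood vessels; they were chosen after their values were seen. Adamts1, a secreted metalloprotease, was 9.38 in vehicle 1, 9.09 in vehicle 2, 9.84 in sunitinib 1 and 9.87 in sunitinib 2 (0.62 ± 0.10, and 0.48 against vehicle 1 alone). Thbd, the thrombin receptor thrombomodulin, was 8.39, 8.18, 8.80 and 8.79 (0.51 ± 0.09), S1pr1, a sphingosine phosphate receptor of endothelium, was 9.98, 9.59, 10.46 and 10.21 (0.55 ± 0.15), and Pcdh12, an endothelial protocadherin, was 8.11, 7.78, 8.52 and 8.53 (0.58 ± 0.12). In each, vehicle 2 was the lowest library. That both sunitinib libraries were above vehicle 1 is fixed by the rule for the 43 genes.

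Of the other genes that differed by 0.5 or more, 4 are given here, also chosen after their values were seen. Ffar4, a receptor for long-chain fatty acids, was 10.68, 10.26, 11.01 and 11.09 (0.58 ± 0.15, and 0.37 against vehicle 1). Ptger3, an antilipolytic prostaglandin receptor, was 9.01, 9.02, 8.34 and 8.59 (-0.55 ± 0.10, and -0.55 against vehicle 1). Hsd11b1, which regenerates active glucocorticoid, was 10.78, 10.99, 10.19 and 10.50 (-0.54 ± 0.13), and Deptor, an inhibitor of mTOR kinase, was 8.09, 7.85, 7.10 and 7.58 (-0.63 ± 0.17). None of these passed limma's adjusted test.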
